A study of Rattus norvegicus with 6 samples.

Results

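Acute phase plasma proteins are secreted by the liver, and their genes are among those that hepatocytes raise or lower during inflammation. The 10 genes described here, Hp, Crp, Orm1, A2m, Lbp, Cp, Hpx, Itih3, Itih4 and Apcs, were taken by name from 22093 genes measured in rat liver, each read from whichever of its probe sets was brightest on average over 6 arrays. Liver RNA came from adult Sprague Dawley rats on regular chow that were killed fed, 1 rat per litter, without distinction of sex. The 3 STZ-O animals were offspring of males made hyperglycaemic with intraperitoneal streptozotocin, a compound toxic to insulin-producing beta cells, and normal females. The 3 CB-O animals were offspring of males with normal blood sugar that had received citrate buffer, mated likewise. Each liver was hybridised to 1 Affymetrix rat transcriptome array, and values are log2 levels, in which a difference of 1 is a doubling.

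Interleukin 6, acting through its receptor and the transcription factor Stat3, and interleukin 1, acting through NF-kB and C/EBP factors, are the main inducers of this response in hepatocytes, and glucocorticoids act together with them. Rats differ from humans in which proteins respond most: A2m and Orm1 are the strong responders in the rat, whereas Crp is made constitutively by rat liver and responds far less than in humans. The other members bind haemoglobin (Hp), haem (Hpx), copper (Cp) or bacterial lipopolysaccharide (Lbp), are pentraxins of innate immunity (Crp and Apcs), or are heavy chains of the inter-alpha-trypsin inhibitor family, which bind hyaluronan or, for Itih4, are cleaved in plasma by kallikrein.

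The upstream regions of 4 members are printed because their levels carry the description that follows: Crp was the member with each STZ-O array higher than each CB-O array, Orm1 is a strong rat responder, and Hpx and Itih4 were lowest on the same array. RefSeq's table for GRCr8 held 7 of the 10 members, namely Hpx, Cp, Orm1, Crp, Apcs, Itih4 and Itih3. Each line gives the 250 bases before the annotated start, 5′ to 3′ along the gene. Capitals mark matches on either strand to any of 4 motifs: CTGGGAA, the type 2 interleukin 6 response element; TTCNNNGAA, a STAT element; TTNNGNAA, a C/EBP core; and GNACANNNTGTNC, a glucocorticoid response element.
Crp (GRCr8, chr13:87693812-87694061, plus strand): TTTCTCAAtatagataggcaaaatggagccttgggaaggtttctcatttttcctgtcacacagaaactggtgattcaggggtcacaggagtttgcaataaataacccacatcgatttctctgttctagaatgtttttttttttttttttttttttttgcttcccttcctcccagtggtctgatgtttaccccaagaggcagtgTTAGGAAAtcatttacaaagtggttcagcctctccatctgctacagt
Orm1 (GRCr8, chr5:81788259-81788508, plus strand): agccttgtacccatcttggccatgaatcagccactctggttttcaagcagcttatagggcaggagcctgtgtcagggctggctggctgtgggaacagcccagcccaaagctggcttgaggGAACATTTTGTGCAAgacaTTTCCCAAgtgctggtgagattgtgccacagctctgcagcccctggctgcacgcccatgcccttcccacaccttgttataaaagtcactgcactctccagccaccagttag
Hpx (GRCr8, chr1:169352156-169352405, minus strand): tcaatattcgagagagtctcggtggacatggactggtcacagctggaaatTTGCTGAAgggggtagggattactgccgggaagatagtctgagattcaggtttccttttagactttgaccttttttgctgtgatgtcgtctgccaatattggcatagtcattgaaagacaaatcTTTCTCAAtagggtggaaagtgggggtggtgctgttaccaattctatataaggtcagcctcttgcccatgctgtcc
Itih4 (GRCr8, chr16:6086735-6086984, plus strand): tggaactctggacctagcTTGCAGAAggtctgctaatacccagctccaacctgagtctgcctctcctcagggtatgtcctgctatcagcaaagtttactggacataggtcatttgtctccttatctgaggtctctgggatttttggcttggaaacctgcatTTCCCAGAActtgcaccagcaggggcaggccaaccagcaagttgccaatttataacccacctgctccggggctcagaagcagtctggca

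The glucocorticoid element was found in 1 of the 7 member regions, that of Orm1, 130 to 118 bases before the start and overlapping a C/EBP match, and in 0.373% of all 33469 regions of this length. The C/EBP core was found in 5 of the 7, against 37.2% of all regions, and Orm1, Crp and Hpx each held it at 2 places. The STAT element was found in Itih4 alone of the 7, against 7.67% of all, where it overlapped the interleukin 6 element 89 bases before the start. The interleukin 6 element was present in 2 of the 7, Itih4 and Apcs, against 9.56%. A match describes these letters and not a bound site.

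No member passed the test between STZ-O and CB-O. In limma, 0 members and 0 of all 22093 genes (0%) passed an adjusted p of 0.05; the smallest adjusted p among members was 0.843 and among all genes 0.0789. At an unadjusted p under 0.05 there was 1 member, Hp, beside 1255 of all genes (5.68%). The difference was above 0 for 4 of the 10 members and below 0 for 6. Its median was -0.02 over the members and 0.00 over all genes, of which 10621 were above 0 and 11472 below. Every STZ-O array exceeded every CB-O array for 1 member, Crp, beside 5.2% of all genes, and every STZ-O array was under every CB-O array for 1 member, Hp, beside 4.93%. The count of 1 at an unadjusted p was 0 when replicate 1 or 3 of either group was left out, and 2 (Hp and Orm1) without STZ-O replicate 2. The share of all genes was not counted for those fits.

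**Figure D1:**
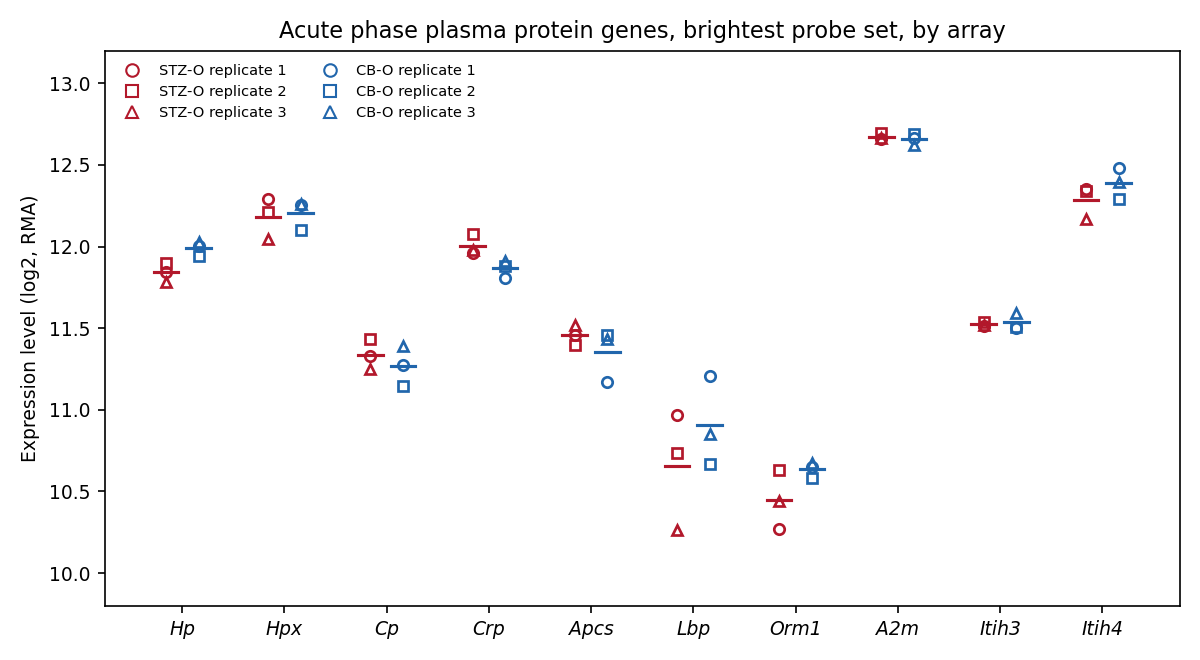
Level (log2, RMA) of the 10 members on each of the 6 arrays, from the brightest probe set of each gene; open symbols are arrays, short lines group means, STZ-O in red on the left and CB-O in blue on the right. STZ-O and CB-O arrays part for Hp and Crp and overlap for the other members, and Lbp has the widest spread, from 10.26 to 11.21.

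Hp, which encodes haptoglobin, the plasma protein that captures haemoglobin freed from red cells, read 11.845, 11.901 and 11.782 on the STZ-O arrays, against 12.005, 11.941 and 12.030 on the CB-O arrays. The groups parted by a narrow margin, with every STZ-O array lower. The difference was -0.15 ± 0.06 (SE, n = 3 each; 95% interval -0.29 to -0.01), or 1.11-fold lower in STZ-O, with a limma unadjusted p of 0.0371 and adjusted p of 0.843. An exact two-sided permutation test of the 6 arrays gave p = 0.1, the smallest that 3 against 3 can give. With 1 array left out in turn the difference stayed between -0.18 and -0.12. Red cell markers were 4 of 4 lower in STZ-O, beside 11472 of all 22093 genes, with 0 at an unadjusted limma p under 0.05. The groups overlapped for each of them. Only 1 of the 4, Hba-a1, averaged above 8.26, the 95th percentile of negative control probe sets. The mean level of the 4 was 7.60, 7.62 and 7.78 in STZ-O, against 7.98, 7.78 and 7.74 in CB-O. The part of red cells in the Hp result was not tested.

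Hpx, the haem-binding hemopexin gene, was at 12.29, 12.21 and 12.05 on the STZ-O arrays and at 12.25, 12.10 and 12.26 on the CB-O arrays. The groups overlapped fully, and the difference was -0.02 ± 0.08 (95% interval -0.21 to 0.17, limma adjusted p = 0.994); it was 0.04 without STZ-O replicate 3. Cp, which encodes the copper-carrying ferroxidase ceruloplasmin, read 11.33, 11.43 and 11.25 in STZ-O, against 11.27, 11.15 and 11.39 in CB-O. The Cp groups overlapped too, with a difference of 0.07 ± 0.08 (95% interval -0.12 to 0.25, adjusted p = 0.988), which was 0.01 if CB-O replicate 2 was left out and 0.13 if instead replicate 3 of that group was.

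Among genes that act with these 3 proteins, Cd163, the macrophage receptor for haptoglobin bound to haemoglobin, averaged 8.01 ± 0.52 (SD, n = 3) in STZ-O and 7.98 ± 0.05 in CB-O. Its difference of 0.04 ± 0.22 (SE) hid a split: STZ-O replicates 1 and 2 were at 8.34 and 8.29 and replicate 3 at 7.41, and without replicate 3 the difference was 0.34. Hmox1, the inducible haem-degrading enzyme gene, was also lowest in STZ-O replicate 3 at 7.50 (difference -0.13 ± 0.15, or 0.05 without that array). Both Cd163 and Hmox1 averaged below 8.26, the 95th percentile of negative control probe sets, so these are readings of a dim signal. Lrp1, the hepatic receptor that clears hemopexin with haem and alpha-2-macroglobulin with protease, differed by -0.13 ± 0.07 (adjusted p = 0.936; -0.07 without CB-O replicate 1).

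Crp and Apcs encode the short pentraxins C-reactive protein and serum amyloid P, and lie next to each other among coding genes of rat chromosome 13. Crp read 11.96, 12.07 and 11.98 on the STZ-O arrays, against 11.81, 11.88 and 11.91 on the CB-O arrays. Every STZ-O array was higher, the nearest pair of arrays being STZ-O replicate 1 and CB-O replicate 3. The difference was 0.14 ± 0.06 (SE; 95% interval -0.00462 to 0.278; 1.10-fold), with a limma adjusted p of 0.888 and an exact permutation p of 0.1. Apcs read 11.46, 11.40 and 11.52 in STZ-O, against 11.17, 11.46 and 11.44 in CB-O. Here the groups overlapped and CB-O replicate 1 alone lay low; the difference of 0.10 ± 0.09 (adjusted p = 0.975) was 0.01 without it and 0.15 without CB-O replicate 2.

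Lbp encodes the protein that hands lipopolysaccharide to CD14 and the Tlr4 receptor. Read from the brightest probe set of each gene, it varied most of the 10 over the 6 arrays. Its levels were 10.97, 10.74 and 10.26 in STZ-O, against 11.21, 10.67 and 10.85 in CB-O. STZ-O replicate 3 was the lowest array and CB-O replicate 1 the highest, a span of 1.92-fold, while the other 4 arrays of both groups intermingled. The difference was -0.25 ± 0.19 (SE; 95% interval -0.70 to 0.20, adjusted p = 0.961), and it was -0.05 when STZ-O replicate 3 was dropped, -0.10 without CB-O replicate 1 and -0.41 without STZ-O replicate 1. Cd14, the co-receptor gene, averaged 7.63 ± 0.14 (SD, n = 3) in STZ-O and 7.94 ± 0.18 in CB-O, with all STZ-O arrays lower; its difference of -0.31 ± 0.11 (adjusted p = 0.800) was -0.20 without CB-O replicate 2, and its level was below the 8.26 under which 95% of negative control probe sets lie.

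The genes with profiles most like that of Lbp, among 2910 genes averaging above 8.26 (the 95th percentile of negative control probe sets), were Slc43a3, Serping1 and Slc38a3, with Pearson r of 0.994, 0.984 and 0.977 over the 6 arrays. Serping1 encodes the C1 inhibitor of plasma, and Slc38a3 a glutamine transporter. These values order genes by likeness over few arrays and carry no test.

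Orm1, which encodes the alpha-1-acid glycoprotein orosomucoid, was at 10.27, 10.63 and 10.44 in STZ-O, against 10.65, 10.59 and 10.67 in CB-O. The CB-O arrays lay close together (10.64 ± 0.05, SD), and STZ-O replicate 2 lay among them while the other STZ-O arrays were lower (10.45 ± 0.18). The difference of -0.19 ± 0.09 (SE; 95% interval -0.40 to 0.03; 1.14-fold lower) had a limma adjusted p of 0.908 and an exact permutation p of 0.2. It was -0.28 without STZ-O replicate 2 and -0.10 without STZ-O replicate 1.

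A2m, the gene of the broad protease inhibitor alpha-2-macroglobulin, had 3 probe sets that gave different pictures, and its group comparison depends on which is read. The brightest, probe set 1, was at 12.66, 12.69 and 12.67 in STZ-O, against 12.67, 12.69 and 12.62 in CB-O. It was nearly flat, with a span of 1.05-fold over the 6 arrays and a difference of 0.01 ± 0.05 (SE; 95% interval -0.11 to 0.14, adjusted p = 0.995). Probe set 2 was at 7.53, 7.37 and 6.71 in STZ-O, against 8.05, 7.58 and 7.91 in CB-O. Probe set 3 was at 7.37, 7.24 and 6.71 in STZ-O, against 7.85, 7.43 and 7.72 in CB-O. On both of these every STZ-O array was lower than every CB-O array, though by a small gap between STZ-O replicate 1 and CB-O replicate 2.

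In a limma fit over all 68842 probe sets, probe set 2 differed by -0.64 ± 0.21 (SE; 1.56-fold lower, unadjusted p = 0.0172, adjusted p = 0.893) and probe set 3 by -0.56 ± 0.18 (1.47-fold lower, unadjusted p = 0.0147, adjusted p = 0.888). Exact permutation gave p = 0.1 for each. Without STZ-O replicate 3 the values were -0.40 and -0.36. Both probe sets averaged below 8.26, where 95% of negative controls also lie, so these are readings of a dim signal. Their profiles were the same in shape, with r = 0.999 over the 6 arrays, and both were most like those of Tnfrsf1a, the tumour necrosis factor receptor gene (r = 0.978 and 0.974), and Clu, which encodes clusterin (0.972 and 0.970).

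In the RefSeq order of rat chromosome 4, A2m is followed by Mug1l1, Mug1 and Mug2, the murinoglobulin or alpha-1-inhibitor 3 genes, which are homologous protease inhibitors that rat liver makes constitutively. The probe sets of Mug1 (12.82 ± 0.02 in STZ-O and 12.80 ± 0.02 in CB-O, SD), Mug2 (12.32 ± 0.02 and 12.30 ± 0.03) and the related Pzp (12.69 ± 0.04 and 12.71 ± 0.04) were as flat as probe set 1 of A2m, with differences of 0.02, 0.02 and -0.02. Which of these transcripts the bright A2m probe set reads was not tested, and values for the family are uncertain as to the member measured.

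**Figure D2:**
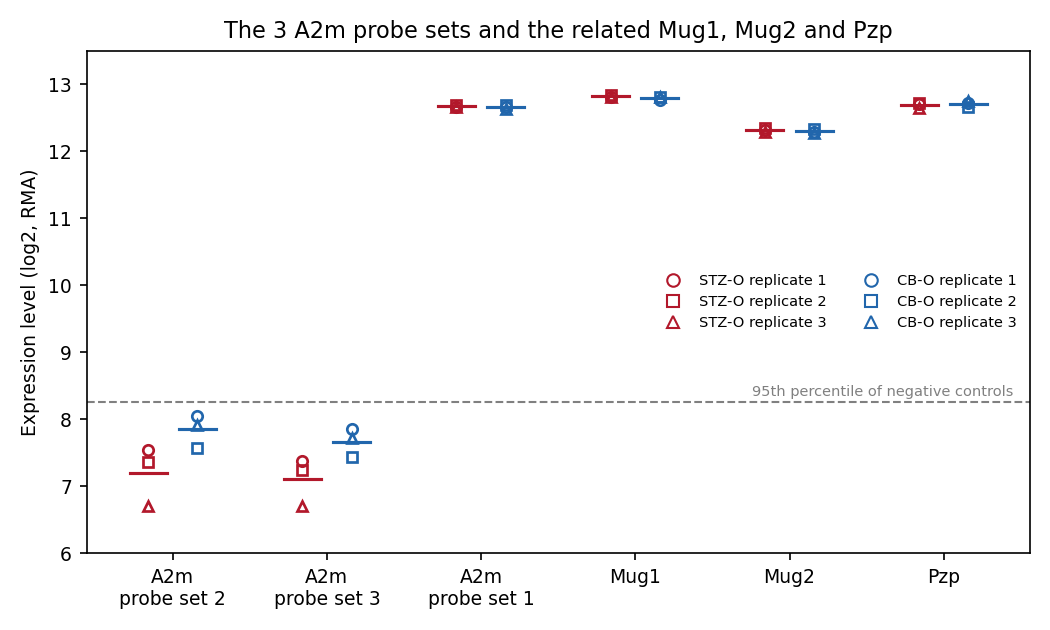
Level (log2, RMA) on each array of the 3 A2m probe sets, numbered by brightness, and of Mug1, Mug2 and Pzp; short lines are group means, STZ-O left of CB-O, and the dashed line is the 95th percentile of negative controls (8.26). The dim A2m probe sets spread from 6.71 to 8.05 with STZ-O below CB-O, while the bright probe sets hardly vary.

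Itih3 and Itih4, inter-alpha-trypsin inhibitor heavy chain genes that adjoin on chromosome 16, behaved differently over the arrays. Itih3 was at 11.51, 11.54 and 11.52 in STZ-O, against 11.50, 11.51 and 11.60 in CB-O, with a difference of -0.01 ± 0.06 (SE; 95% interval -0.14 to 0.12, adjusted p = 0.995). Itih4 was at 12.35, 12.34 and 12.17 in STZ-O, against 12.48, 12.29 and 12.39 in CB-O. Its groups overlapped, with STZ-O replicate 3 the lowest array and CB-O replicate 1 the highest, as for Lbp. The Itih4 difference was -0.10 ± 0.08 (adjusted p = 0.961), or -0.04 without STZ-O replicate 3 and -0.05 without CB-O replicate 1. Of the family's other plasma genes, Itih1 differed by 0.04 ± 0.07 (0.10 without CB-O replicate 1) and Itih2 by -0.02 ± 0.08 (0.06 without STZ-O replicate 3). Ambp, which encodes the light chain bikunin, differed by 0.02 ± 0.06 (-0.03 without STZ-O replicate 3). Itih5, a heavy chain gene of other tissues that averaged below 8.26 here, was at -0.18 ± 0.07 with all STZ-O arrays lower (adjusted p = 0.876).

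**Figure D3:**
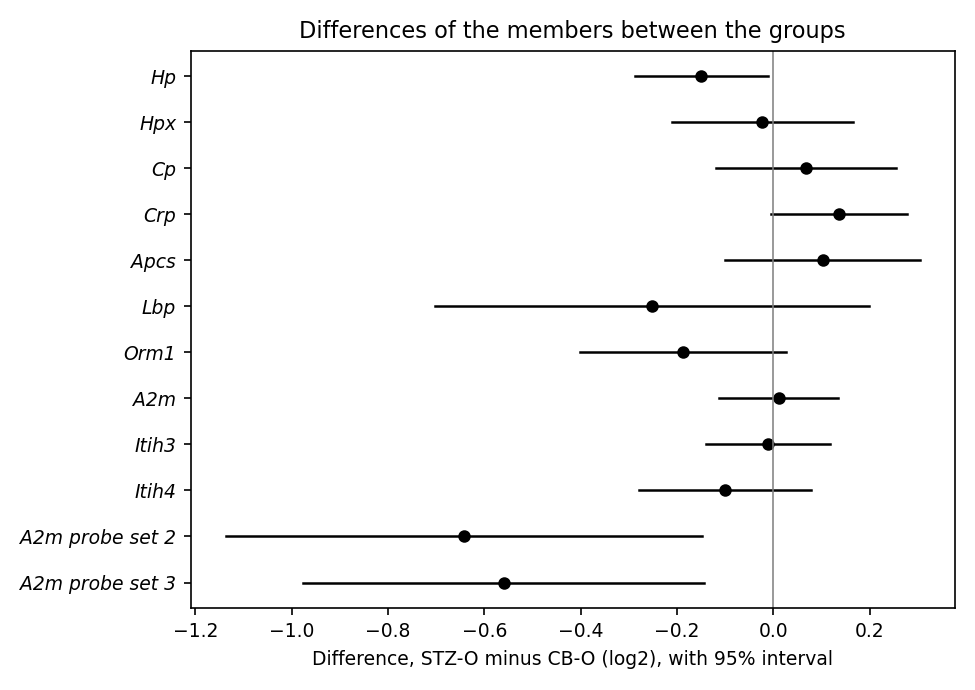
Difference of each member, in log2 units, STZ-O less CB-O (points), with the 95% interval from limma (lines); the lowest rows are A2m probe sets 2 and 3. The intervals of Hp and of the dim A2m probe sets lie wholly below 0, and no adjusted p is under 0.05. The interval of Lbp is the widest among the brightest probe sets of the members, and that of A2m probe set 2 is wider still.

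The intervals describe the array signal. Over the brightest probe sets of the 10 members they ran from -0.70 (Lbp) to 0.30 (Apcs). The 2 dim A2m probe sets had intervals of -1.14 to -0.15 and -0.98 to -0.14.

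The lowest and highest array of each member were counted. STZ-O replicate 3 was the lowest of the 6 arrays for 4 of 10 members (Hp, Lbp, Hpx and Itih4), and also for both dim A2m probe sets. Over all genes it was lowest for 19.7%, and over the 565 genes averaging above 10 for 27.4%. Since all 10 members average above 10, their count of 4 is not far from the latter share and is not read as a trait of the members. CB-O replicate 1 was the highest for Lbp, Itih4 and the dim A2m probe sets, and the lowest for Crp, Apcs and Itih3. Over all genes it was the highest for 18.3% and the lowest for 17.7%. Over the genes averaging above 10 it was the highest for 18.6% and the lowest for 23.2%. Its counts of 2 and 3 of 10 members are not far from these last shares. STZ-O replicate 3 was also the lowest for 10 of 12 Kupffer cell and macrophage markers and for 9 of 10 sinusoidal endothelial markers. The mean level of the Kupffer list was 8.29, 8.31 and 7.77 in STZ-O, against 8.14, 8.12 and 8.09 in CB-O. That of the endothelial list was 8.67, 8.65 and 8.20 in STZ-O, against 8.80, 8.64 and 8.58 in CB-O. Of the other marker lists, STZ-O replicate 3 deviated from the mean of the 6 arrays by -0.06 for hepatocytes, 0.00 for leukocytes, 0.04 for stellate cells, 0.04 for cholangiocytes and 0.03 for red cells, against -0.35 for the Kupffer and -0.39 for the endothelial list. Between the groups, 8 of 12 Kupffer markers were higher in STZ-O (median difference 0.02, 0 at an unadjusted p under 0.05). For the endothelial list, 9 of 10 were lower (median -0.17), beside 11472 of all 22093 genes. Of these, 1 was at an unadjusted limma p under 0.05, beside 5.68% of all genes in either direction. The adjusted limma test called none on either list. Averages above 8.26 were reached by 6 of 12 Kupffer and 6 of 10 endothelial markers. The part of these cells in the members' profiles was not tested. In bulk liver, fewer cells of a type and less RNA per cell cannot be told apart.

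**Figure D4:**
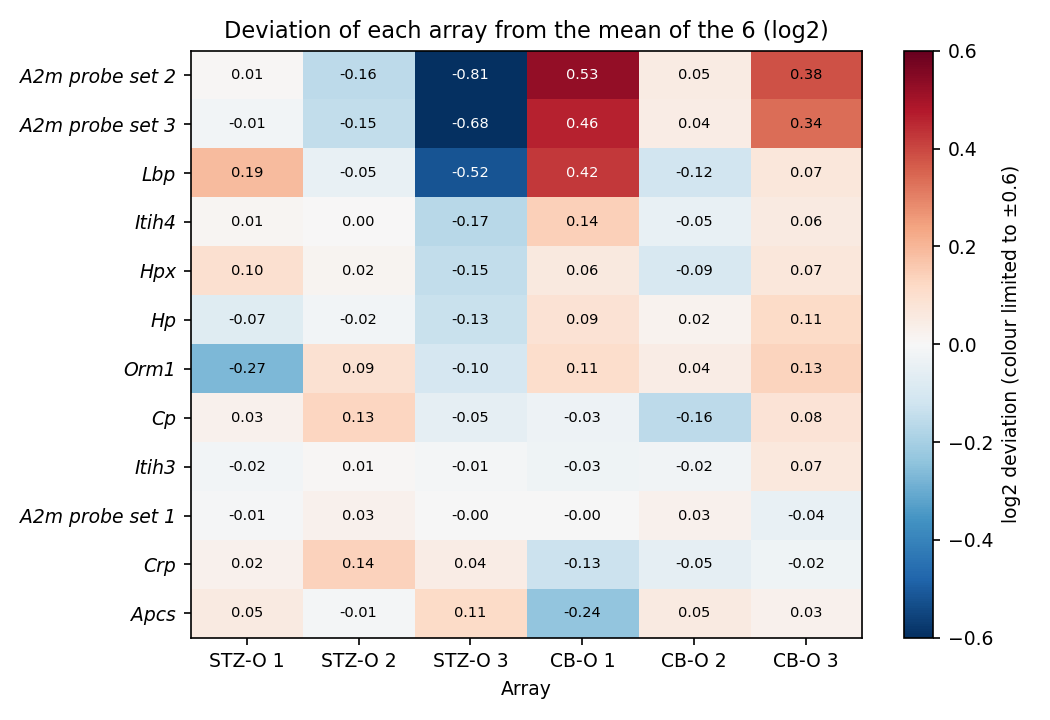
Deviation of each array from the mean of the 6 arrays, in log2 units, for the members and all 3 A2m probe sets (colour and printed value; STZ-O columns left, CB-O columns right). STZ-O replicate 3 is the lowest column for both dim A2m probe sets, Lbp, Itih4, Hpx and Hp, and CB-O replicate 1 the highest for the dim A2m probe sets, Lbp and Itih4.

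The members sit high in the range of the array, where probe signal can saturate. Their mean levels ran from 10.54 (Orm1) to 12.67 (A2m probe set 1), brighter than 96.2% to 99.9% of the 68842 probe sets, and the brightest probe set of all averaged 13.46. The SD over the 6 arrays had a median of 0.107 among probe sets averaging 10 to 11, 0.080 at 11 to 12, 0.090 at 12 to 13 and 0.048 at 13 to 14. These comparisons include probe sets without a gene symbol. The range of 11 to 12 alone held 1808 probe sets, whereas only 565 genes averaged above 10. Lbp, at 0.318, exceeded 97.0% of probe sets within 0.25 of its brightness. A2m probe set 1 (0.026) exceeded 2.13% of its neighbours in brightness and Itih3 (0.034) 0.252%. Hp (0.095), Crp (0.091), Hpx (0.098), Cp (0.103) and Itih4 (0.104) each exceeded between 74.7% and 83.3% of theirs. Whether the bright probe sets compress true differences was not tested.

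**Figure D5:**
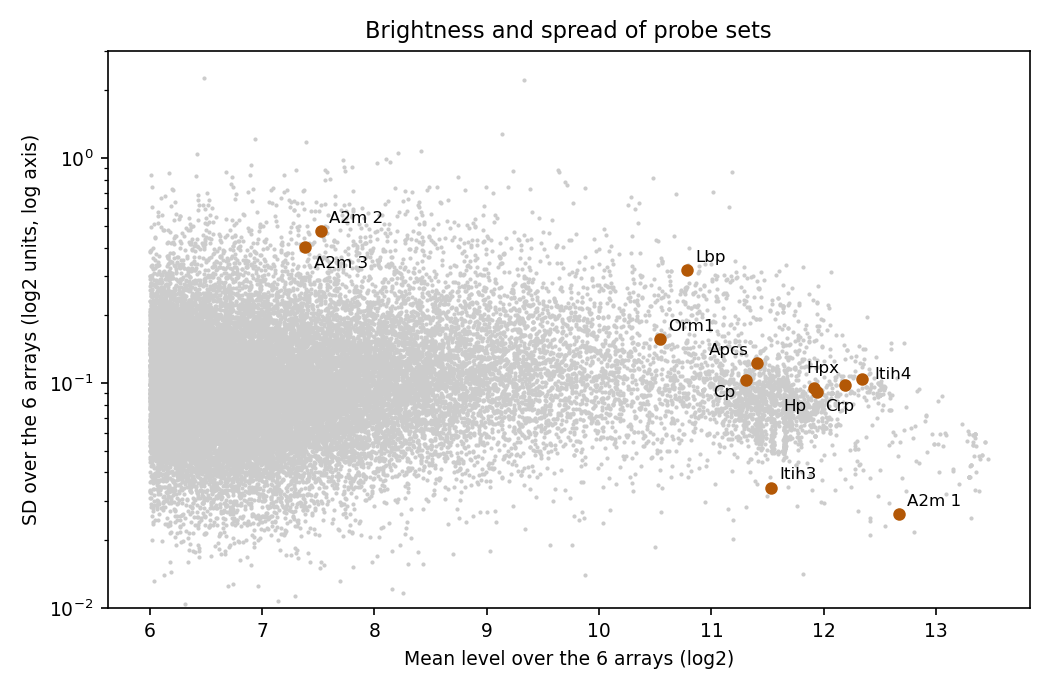
SD over the 6 arrays (log axis) against the mean level over them (log2) for probe sets averaging above 6 (grey) and for the members (orange, A2m numbered by probe set). Most members lie between 10.5 and 12.7, with Lbp high in spread and Itih3 and A2m probe set 1 low.

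Other genes that inflammation raises gave no call between the groups either. Of 20 measured, 7 had a difference above 0 and 13 below (median -0.02). At an unadjusted limma p under 0.05 there was 1 in each direction, beside 5.68% of all genes in either direction, and 0 passed the adjustment. Averages above 8.26 were reached by 12 of the 20. The fibrinogen chain genes Fga, Fgb and Fgg differed by -0.02 ± 0.12 (SE), 0.02 ± 0.08 and 0.04 ± 0.08, and by 0.11, 0.10 and 0.12 without CB-O replicate 3, their highest array. C3, the central complement gene, differed by -0.01 ± 0.06. Hamp, which encodes the iron hormone hepcidin, differed by -0.01 ± 0.16 (0.14 without CB-O replicate 1, 0.13 without STZ-O replicate 3), and the antichymotrypsin-like Serpina3n by -0.13 ± 0.09 (-0.03 without CB-O replicate 3). Those with the largest t were Serpina1 (-0.38 ± 0.11, adjusted p = 0.709), the ferrireductase gene Steap4 (0.29 ± 0.12; 0.18 without STZ-O replicate 2), Lcn2 (-0.19 ± 0.09; -0.10 without CB-O replicate 3) and the metallothionein gene Mt2A (-0.68 ± 0.37; -1.15 without STZ-O replicate 1, -0.41 without STZ-O replicate 3). Serpina1, the alpha-1-antitrypsin gene, and Lcn2, which encodes the iron-withholding lipocalin 2, averaged below 8.26.

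Among genes that inflammation lowers, 7 of 12 had a difference above 0 and 5 below (median 0.03). The limma test gave 1 at an unadjusted p under 0.05, beside 5.68% of all genes, and 0 after adjustment. Every STZ-O array was higher for 3 of the 12, beside 5.2% of all genes. These were Serpina6, Ttr and Rbp4, whose difference was 0.04. Every STZ-O array was lower for 1, Fetub, beside 4.93% of all genes. Averages above 8.26 were reached by 11 of the 12. Serpina6, which encodes the corticosteroid carrier transcortin, was at 10.71, 10.46 and 10.45 in STZ-O, against 10.17, 10.31 and 9.61 in CB-O. All its STZ-O arrays were higher, with a difference of 0.51 ± 0.17 (SE, limma adjusted p = 0.800) that was 0.30 without CB-O replicate 3, the lowest array. Albumin (Alb) and transthyretin (Ttr) differed by 0.04 ± 0.06 and 0.08 ± 0.05, near the top of the range at 13.17 and 12.70 in STZ-O and 13.13 and 12.62 in CB-O. Apoa1 was at -0.21 ± 0.11 (-0.33 without STZ-O replicate 1, -0.11 without STZ-O replicate 3), Apoa4 at 0.18 ± 0.12 (0.04 without STZ-O replicate 2, 0.29 without STZ-O replicate 1) and Fetub, a fetuin gene, at -0.13 ± 0.07 (-0.07 without STZ-O replicate 3). The transferrin gene was not analysed here.

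Among 21 binding partners and receptors, 8 were higher and 13 lower (median -0.02). The limma test gave 2 at an unadjusted p under 0.05, both lower (Cd14 and Itih5), beside 5.68% of all genes in either direction. Only 10 of the 21 averaged above 8.26. STZ-O replicate 3, the array low for Kupffer and endothelial markers, was the lowest for 15 of the 21 (71.4%, beside 19.7% of all genes). Cd163 and Fcgr2b are among the 21 and also on the Kupffer and endothelial lists, respectively. The part of STZ-O replicate 3 in the tally was not tested. A2ml1, a relative of A2m best known from epithelia, was at 7.49, 6.91 and 7.11 in STZ-O, against 5.67, 7.29 and 5.97 in CB-O. CB-O replicate 2 lay among the STZ-O arrays, and the difference of 0.86 ± 0.38 (SE, adjusted p = 0.885) was 1.35 without that array and 0.54 without CB-O replicate 1. All of these readings are below 8.26.

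Of 35 cytokine, receptor and transcription factor genes of the response, 17 were higher and 18 lower (median -0.02). At an unadjusted limma p under 0.05, 1 was higher and 2 lower, beside 5.68% of all genes in either direction, and 0 passed the adjustment. Only 14 of the 35 averaged above 8.26. Il6r, the interleukin 6 receptor gene, differed by 0.18 ± 0.11 (SE; 0.07 without STZ-O replicate 1) and its signalling partner Il6st by -0.13 ± 0.13 (-0.02 without replicate 3 of either group). Stat3 was at -0.06 ± 0.18, with CB-O replicate 3 the highest array at 9.94 and CB-O replicate 2 the lowest at 9.17; its difference was 0.15 without CB-O replicate 3. The feedback inhibitor Socs3, an early target of Stat3, differed by 0.02 ± 0.09 (0.12 without CB-O replicate 3), and Cebpb and Cebpd by 0.01 ± 0.06 and 0.05 ± 0.06. Il1rap, the shared subunit of interleukin 1 receptors, was at 8.14, 8.04 and 8.07 in STZ-O, against 8.22, 8.30 and 8.25 in CB-O, a difference of -0.17 ± 0.06 (adjusted p = 0.800) with all STZ-O arrays lower. Il1rap, Socs3, Cebpb and Cebpd averaged below 8.26 over the 6 arrays. Tnfrsf1a was at -0.30 ± 0.13 (-0.16 without STZ-O replicate 3). Ppara, a nuclear receptor that restrains hepatic acute phase genes in mice, had the largest t of the list at 0.47 ± 0.11 (adjusted p = 0.570). Il22, whose arrays also parted (difference -0.19 ± 0.06), averaged below the negative control median of 5.51.

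The 6 arrays correlated with each other at r = 0.991 to 0.994 across probe sets, and their medians lay between 5.77 and 5.82. All 9 hepatocyte markers averaged above 8.26. The Y-linked genes Ddx3y (9.22 to 9.67) and Eif2s3y (8.38 to 8.67) lay above 8.26 on all 6 arrays. No array stood apart as low for Ddx3y and Eif2s3y. Of the 5 Y-linked genes listed, only 2 averaged above 8.26. Uty averaged 8.25 in STZ-O and 8.19 in CB-O, Kdm5d 7.64 and 7.66, and Usp9y 3.42 and 3.39. The arrays were alike for these genes, but without an array of known sex to compare with, the sex of each liver was not settled.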

How the data were processed

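The deposited values are log2 levels of probe sets, for which the submitters' processing notes name RMA and Affymetrix Expression Console 1.4.1; its settings, annotation and build were not stated there. RMA corrects background, quantile normalizes and summarises the probes of a set, which compresses differences of dim probe sets.

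Control probe sets were left out, leaving 68842. The platform annotation gave 1 symbol to 23446 of these, several to 505 and none to 44891; 22076 were renamed through Entrez identifiers. Each of 22093 genes was its brightest single-symbol probe set. Groups (3 STZ-O, 3 CB-O) were compared with limma 3.58.1 in R 4.3.3 (lmFit, eBayes, two-sided, no covariate, Benjamini-Hochberg over all genes), checked on simulated data. Errors beside differences are moderated SEs and beside means SDs. A2m probe sets 2 and 3 come from the same fit over all probe sets. P-values measure the spread between 3 animals per group, and the number of arrays limits precision. Members and lists were chosen with earlier results of these data known. Named genes were the members and, per list, the 4 with the largest absolute t plus a fixed set; most like a profile meant the highest Pearson r, for the member with the largest SD, and A2m was added after its values were seen. Alternatives left out arrays, added a block or covariate, changed scaling, probe set, filter, weights or variance model. Promoter sequences are RefSeq's, build GRCr8.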

Additional observations from a re-analysis of the deposited data

How the results depend on the processing

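Each value is limited by 3 arrays per group, by brightness near the top of the range for the members and near background for the dim A2m probe sets. Over 16 to 18 alternatives per member, Hp, Crp, Orm1, Lbp, Cp, Itih4 and Apcs kept their direction and no member passed the adjusted threshold (smallest adjusted p 0.664, Orm1 without STZ-O replicate 2). Several alternatives could not move the difference of these 7 genes, each read from a single probe set. They were the replicate block, the mean over probe sets, leaving out dim genes and the fit over all probe sets. Robust variances with an intensity trend and t without moderation could not move it either. Direction was open to change only under the other alternatives.

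The A2m difference (0.01) was -0.0399 after quantile normalization again, -0.40 as the mean over its probe sets, -0.64 with probe set 2 and, chosen after seeing the data, -0.56 with probe set 3; with 1 array left out it ran from -0.00655 to 0.0281. Hpx (-0.02) was 0.00463 with a Y-linked covariate, and -0.0760 to 0.0448 with 1 array left out. The mean level of the 5 Y-linked genes ran only from 7.36 to 7.54 over the arrays, so that covariate cannot adjust for sex. Itih3 (-0.01) was 0.0448 after quantile normalization again and -0.0275 to 0.0185 with 1 array left out.

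The count of members at an unadjusted p under 0.05 (1) was 0 to 2 with 1 array left out. It was 0 with the Y-linked covariate, without dim genes, over all probe sets, and under robust variances with an intensity trend. It was 2 with arrays centred on their median, array weights, t without moderation, the mean over probe sets, or probe set 2 or 3 for A2m. The share of all genes at that threshold was not counted under each alternative, so these counts are not read as results about the members. Genes past the adjusted threshold (0) were 2 under robust variances with an intensity trend and 0 to 1 with 1 array left out; t without moderation gave 0.

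With the replicate number as a block the count of members was 0 and no gene passed the adjusted threshold (0). Same-numbered arrays shared only a number: their deviations correlated at 0.15, -0.17 and 0.10, and 1 of 3 STZ-O arrays correlated best with its own number. The causes of these shifts were not tested.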
